A study of Mus musculus with 27 samples.

Results

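The comparison described here is that of wild-type mouse embryonic fibroblasts 24 h after 10 Gy of gamma radiation with the same cells 4 h after it. Its members are the 6 arrays of these groups, 3 at 4 h and 3 at 24 h, out of 27 arrays in all, and they were chosen by genotype and time. Mouse embryonic fibroblasts are connective tissue cells grown from embryos. The study used wild-type cells, cells with a knockout of PKBalpha (the protein kinase that Akt1 encodes) and cells titled as knockout R, where the labels list a rescued knockout as the third genotype (line R below). Each line was measured untreated, at 4 h and at 24 h, with 3 biological replicates a group. The cells of every group were female, at passage 45, grown in medium with 10% serum and cultured for 24 h before the irradiation. The question was which early changes had faded by 24 h, which persisted and which began late. Untreated wild-type cells serve as the reference for this, and how long they were kept in culture is not given, so that time in culture and time after irradiation cannot be told apart. The labels name 1 line for each genotype, so the replicates show the spread within a line. The sample descriptions call all 6 irradiated wild-type samples untreated, and the groups were taken from the sample titles.

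Ionizing radiation breaks DNA, and the kinases that sense the breaks stabilise p53, a transcription factor that raises inhibitors of the cell cycle, its own inhibitor Mdm2 and genes of cell death. Genes for DNA replication are driven by E2F factors as cells enter S phase, whereas genes for mitosis are driven later by the MuvB complex with B-Myb and FoxM1. Arrest of the cycle lowers both groups through p53, p21 and the repressor forms of these complexes, and fibroblasts that remain arrested can take on a senescent state in which they secrete proteases and cytokines.

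Levels are intensities of the brightest probe set of a gene, on the authors' linear scale, and group levels are geometric means of 3 arrays. Differences are on the log2 scale, given with the standard error of a limma model over all 27 arrays, and a gene was called changed at an adjusted p below 0.05 (Benjamini-Hochberg over 18193 genes). The background level, taken from genes of the Y chromosome in these female cells, was an intensity of 48.3. Between 11001 and 11682 genes lay above it on the 9 wild-type arrays. The number of arrays limits the precision. Replicate 0 at 4 h and replicate 2 of the untreated wild-type cells stood apart with 3 arrays of the other lines by the 3' over 5' ratio of Gapdh controls (-0.187 to 0.16 on the log2 scale, against -0.466 to -0.298 on the other 22 arrays). Results are therefore also given without these 5 arrays. The fibroblast markers summed to an intensity of 110356 to 138952 on the 6 arrays. Epithelial markers summed to 928 to 1333 at 4 h and 933 to 1454 at 24 h, endothelial markers to 297 to 394 and 330 to 737, haematopoietic markers to 366 to 492 and 364 to 590, and skeletal muscle markers to 209 to 363 and 173 to 393. Of these other markers 5 of 10, 7 of 8, 5 of 8 and 6 of 8 lay below background in all 3 wild-type groups, Cdh1, Pecam1, Cdh5, Ptprc and Myod1 among them, and 0 were called between the times. The epithelial and endothelial lists had medians of 0.60 and 0.56 at such levels, and their part in the results was not tested. Akt1 read 2981 to 4546 on the 9 wild-type arrays, 2.35 to 65.5 in the knockout and 6.25 to 41.9 in line R, where it is not known whether the probes cover the sequence put back.

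Between 4 h and 24 h, members of the DNA replication, mitosis, homologous recombination and ribosome production lists fell. A few members of the lysosome, matrix and ATF4 stress lists rose (3 of 22, 2 of 31 and 3 of 20 called). In all, 473 genes were called, which is 2.6% of those tested, with 202 higher at 24 h (1.11%) and 271 lower (1.49%). Of these, 147 differed by more than 2-fold, and in 471 the 3 arrays of one time did not overlap with those of the other, against 23.4% of all genes. A call on the same arrays nearly brings this about, so the gap is no separate evidence, here or for the called genes below. In 24 of the called genes both groups lay below background. In such bulk samples, fewer cells of a type and less RNA per cell cannot be told apart. Of 389 further probe sets above background for 238 of the called genes, 347 moved in the direction of the brightest one.

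These calls rest on the spread pooled over all 27 arrays. With the 9 wild-type arrays alone 0 genes were called by limma, and with the 6 compared arrays alone 1 was, although 2332 and 2522 genes had an unadjusted p below 0.05 there, against 2826 in the fit on all arrays. The count was 298 without replicate 0 at 24 h, 101 without replicate 1, 193 without replicate 2, 131 without replicate 0 at 4 h, 159 without replicate 1 and 628 without replicate 2. In every one of these 6 fits, 64 of the 473 genes kept their call, 14 higher and 50 lower. The 24 of them that are described below are Adh1, Blm, Brca1, Ccnf, Cgas, Clspn, Dnmt1, E2f7, E2f8, Exo1, Fbl, Ifit1, Kifc1, Mcm10, Nupr1, Rfc5, Rrm2, Spag5, Tgfbi, Top2a, Ttk, Uhrf1, Utp20 and Xkr5. The lysosome list and the matrix and collagen list kept 0 of their calls in all 6 fits, and the ATF4 list kept 1. The replication fork and homologous recombination lists kept 4 each, the 2 mitosis lists 2 and 5, and the ribosome list 2. Without the 5 arrays that stood apart, 617 genes were called (239 higher and 378 lower), and 324 of the 473 were among them. Setting all array medians equal moved the median of the 24 h against 4 h differences by -0.102. Then 88 genes were higher and 306 lower, so that the share of higher calls went from 42.7% to 22.3%. Of the 473 genes, 270 were among these calls.

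**Figure D1:**
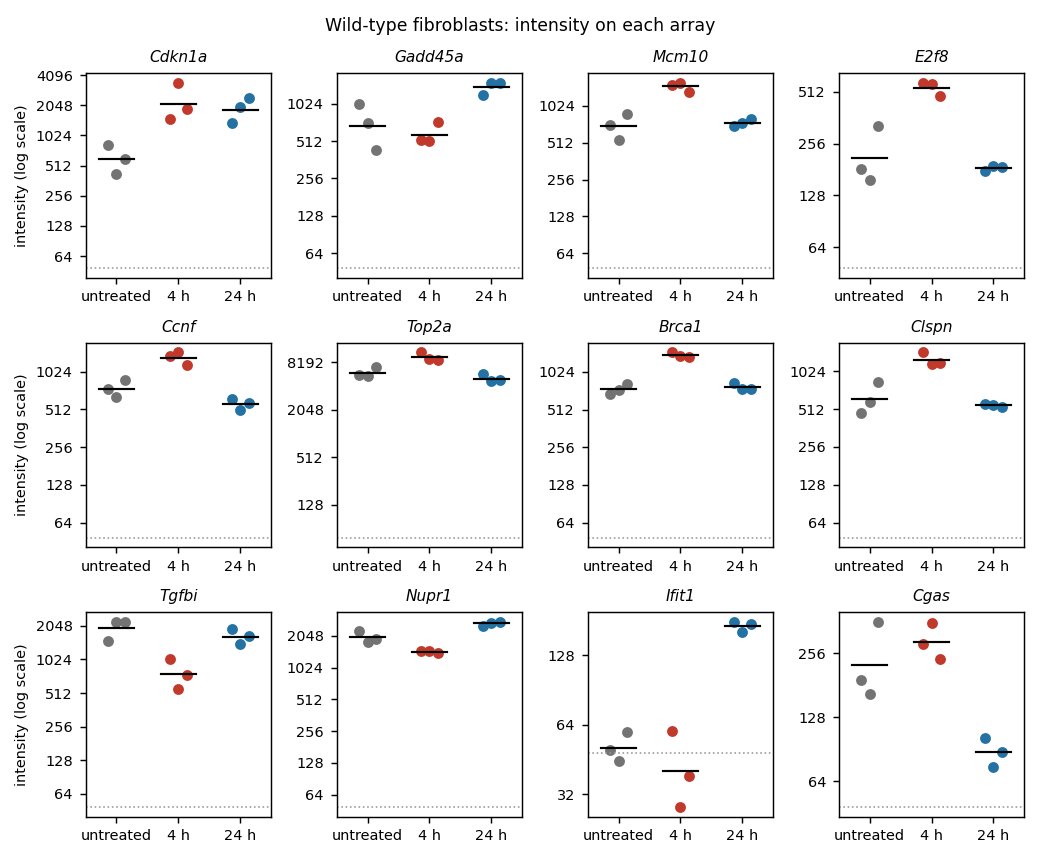
Intensity (log scale) of 12 genes in untreated wild-type fibroblasts, at 4 h and at 24 h after 10 Gy. Each point is 1 array, each bar the geometric mean of 3 arrays and the dotted line the background level of 48.3. Cdkn1a reads 1363 or more on all 6 irradiated arrays, Mcm10, E2f8, Ccnf, Top2a, Brca1 and Clspn are high at 4 h only, and Cgas lies at 102 or less at 24 h.

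Against untreated cells, 592 genes were called at 4 h (3.25% of those tested, 275 higher or 1.51% and 317 lower or 1.74%) and 9 at 24 h (0.0495%, 4 higher or 0.022% and 5 lower or 0.0275%). The 2 comparisons share the untreated arrays and share others with the direct one, so the classes that follow are a description. Of the 275 genes raised at 4 h, 263 read lower at 24 h than at 4 h, and 109 of them were called lower, which is taken here as fading. Their median difference from untreated cells went from 0.75 at 4 h to -0.01 at 24 h. Of the 317 genes lowered at 4 h, 314 read higher at 24 h, and 102 were called higher, with a median that went from -1.04 to -0.04. A further 162 raised and 213 lowered genes had no call after 4 h, and their medians at 24 h were 0.39 and -0.35. Persistence, a call in the same direction at both times, was found for 4 raised and 2 lowered genes, and a late change, called at 24 h against both other groups only, for 2 lower genes. A further 100 genes were called higher and 160 lower between 4 h and 24 h with no call against untreated cells. Without the 5 arrays that stood apart, the fading classes held 136 and 75 genes, persistence 10 and 1, and the late class 1. With equal array medians the fading classes held 95 and 35 genes, persistence 2 and 1, and the late class 2. With the mean over all probe sets of a gene the fading classes held 30 and 38 genes, persistence 1 and 0, and the late class 0. With the compared or the wild-type arrays alone every one of these classes held 0 genes.

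**Figure D2:**
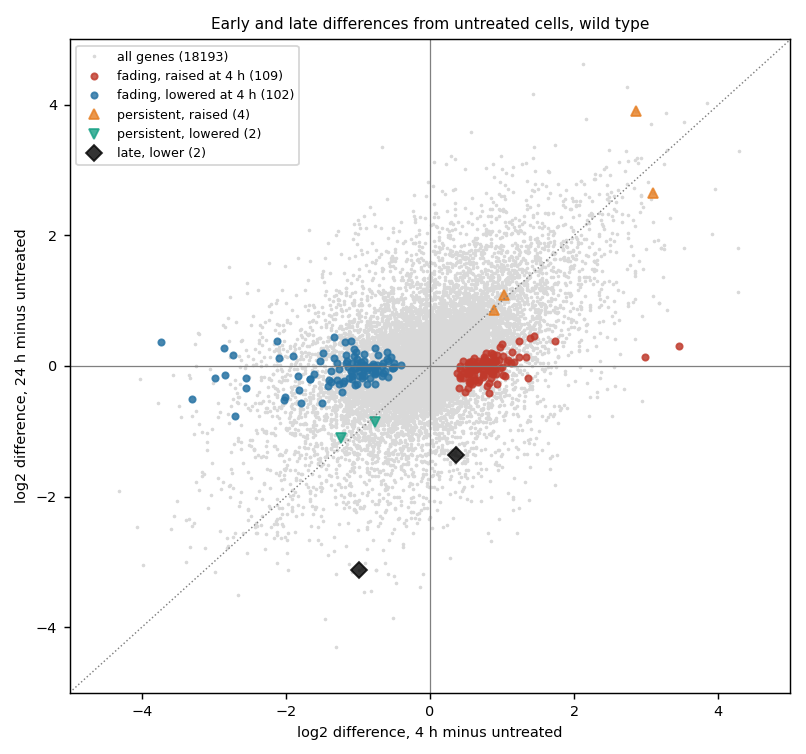
Log2 difference from untreated wild-type cells at 4 h (horizontal) and at 24 h (vertical) for 18193 genes, with the fading, persistent and late classes in colour and the line of equal differences dotted. Both axes share the untreated arrays. The 109 and 102 fading genes have medians of -0.01 and -0.04 on the vertical axis, and 4 of the 6 persistent genes (Macir, Zfp367, Ebf3 and Elovl6) lie near the dotted line.

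The leading targets of p53 had no called change between the times. Cdkn1a, whose product p21 inhibits the kinases of the cell cycle, read 813, 427 and 599 on the untreated arrays, 1492, 3452 and 1881 at 4 h and 1363, 1963 and 2394 at 24 h. The 4 h and 24 h arrays overlapped, and all 6 lay above the untreated ones. The difference between 24 h and 4 h was -0.20 ± 0.39 (adjusted p = 0.88). Against untreated cells the 4 h rise passed (1.85 ± 0.39, adjusted p = 0.015) and the 24 h difference of 1.65 did not (adjusted p = 0.15). The 4 h call was lost without replicate 1 at 4 h or without untreated replicate 1 (adjusted p up to 0.067). A second probe set of Cdkn1a read 576, 2065 and 1461 in the order of the groups. Mdm2, which encodes the ubiquitin ligase that removes p53, read 1081, 3277 and 4555 at 4 h and 1519, 2364 and 3010 at 24 h, with a difference of -0.19 ± 0.53 (adjusted p = 0.92). Its 24 h arrays lay within the range of the 4 h arrays. Mdm2 read 983 in untreated cells, and its rise of 1.36 at 4 h did not pass in limma over probe sets (adjusted p = 0.22). A second probe set of Mdm2 read 885, 1935 and 1393 in the order of the groups, and its rise of 1.13 at 4 h did (adjusted p = 0.03). Ccng1, which encodes cyclin G1, read 4404 untreated, 7767 at 4 h and 6985 at 24 h (-0.15 ± 0.22 between the times, adjusted p = 0.83).

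Other p53 targets fell back. Aen, which encodes an exonuclease that acts in apoptosis, read 1400, 1536 and 1375 at 4 h and 585, 704 and 731 at 24 h. Its groups did not overlap, and it fell 2.14-fold (-1.10 ± 0.25, adjusted p = 0.027) to 670, beside 644 in untreated cells. Ei24, also called Pig8, fell from 3323 to 1882 (-0.82 ± 0.18, adjusted p = 0.021), and Gtse1, a regulator of p53 in G2, fell from 1148 to 505 (-1.19 ± 0.29, adjusted p = 0.033). Gadd45a, a stress sensor that binds p21 and PCNA, ran the other way. It read 517, 513 and 723 at 4 h and 1203, 1514 and 1492 at 24 h, all 3 above the highest untreated array (1012), and rose 2.42-fold (1.27 ± 0.26, adjusted p = 0.015). Over the 20 measured targets of arrest and feedback, 1 was higher and 2 were lower at 24 h than at 4 h, and the median difference from untreated cells was 0.57 at 4 h (6 called higher and 1 lower) and 0.38 at 24 h (0 called). Over the 12 targets of cell death, 0 were higher and 1 was lower, with medians of 0.57 (2 called higher) and 0.33 (0 called). The median of all genes was -0.01 at 4 h and 0.03 at 24 h. The calls of these genes depended on single arrays, and the arrest list had 0 calls without replicate 1 or 2 at 24 h or replicate 1 at 4 h. Gtse1 was lost without any of the 6 (adjusted p 0.05 to 0.13), Aen without any but replicate 2 at 4 h (up to 0.089), Ei24 without each 24 h array or replicate 1 at 4 h (up to 0.078), and Gadd45a without replicate 1 or 2 at 24 h or replicate 0 or 1 at 4 h (up to 0.072). Gtse1 and Gadd45a were also lost with equal array medians, and Gtse1 and Aen with averaged probe sets, where all probe sets of a gene are averaged. The other 3 probe sets of Aen differed by -0.46, -0.61 and 0.48, and 0 of them were called.

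**Figure D3:**
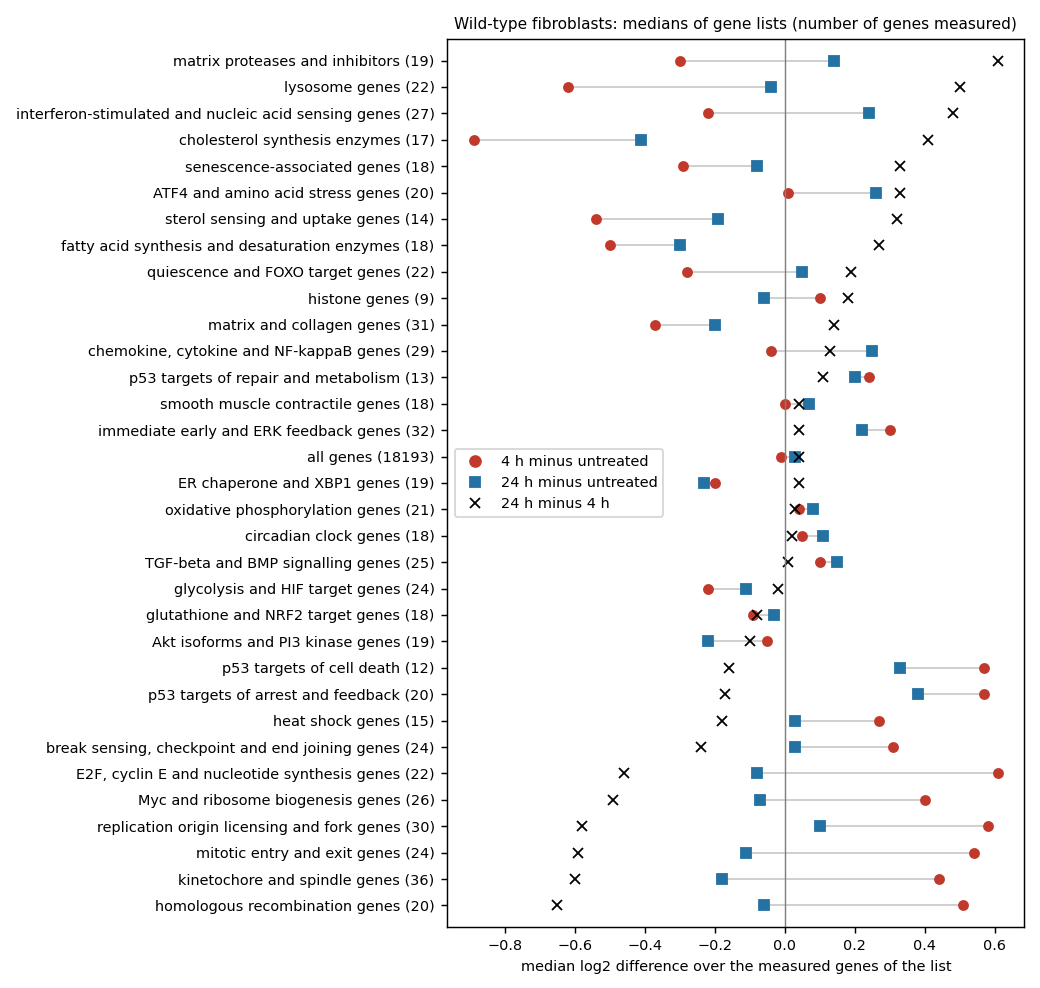
Median log2 difference over the measured genes of each list in wild-type cells, for 4 h minus untreated (circles), 24 h minus untreated (squares) and 24 h minus 4 h (crosses), with lists ordered by the last. The p53 target lists for arrest and cell death go from 0.57 at 4 h to 0.38 and 0.33 at 24 h, where 0 of their genes were called, and the replication, mitosis and recombination lists go from 0.44 to 0.61 at 4 h to between -0.18 and 0.10 at 24 h.

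Of the genes of DNA replication, 11 of 30 fell. All 30 measured genes of origin licensing and the replication fork read lower at 24 h than at 4 h, 11 of them were called, and their median difference was -0.58, against 0.04 for all genes. At 4 h their median had been 0.58 above untreated cells with 10 called, and at 24 h it was 0.10 with 0 called. Mcm10, which links the replicative helicase to DNA polymerase alpha, read 1516, 1584 and 1324 at 4 h and 694, 735 and 799 at 24 h. The times did not overlap, and the level fell 1.98-fold (-0.99 ± 0.15, adjusted p = 0.0018) to 742, beside 696 untreated. Rfc5, a subunit of the clamp loader, fell from 2697 to 1552 (-0.80 ± 0.13, adjusted p = 0.0038). The count of 11 was 5, 4 and 6 without replicate 0, 1 and 2 at 24 h, 4, 4 and 8 without those at 4 h, 6 with equal array medians, 4 with averaged probe sets and 15 without the 5 arrays that stood apart.

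Of 22 genes of the E2F, cyclin E and nucleotide synthesis list, 0 were higher and 8 were lower at 24 h, with a median of -0.46. E2f7 and E2f8 encode atypical E2F factors that repress E2F targets. E2f8 read 579, 564 and 485 at 4 h and 178, 191 and 187 at 24 h, and E2f7 read 1371, 1351 and 1132 and then 587, 625 and 700. Neither gene had overlapping groups. E2f8 fell 2.93-fold (-1.55 ± 0.19, adjusted p = 0.00054) and E2f7 2.01-fold (-1.01 ± 0.11, adjusted p = 0.00043). Rrm2, the regulated subunit of ribonucleotide reductase, fell from 9893 to 5247 (-0.91 ± 0.16, adjusted p = 0.0071), and Tk1, thymidine kinase, fell from 4625 to 2217 (-1.06 ± 0.21, adjusted p = 0.011). Tk1 lost its call without replicate 1 at 24 h or replicate 1 at 4 h (up to 0.066). Dnmt1, the maintenance DNA methyltransferase, fell from 3753 to 2209 (-0.76 ± 0.09, adjusted p = 0.00043), and Uhrf1, which recruits it to new DNA, from 3886 to 2188 (-0.83 ± 0.14, adjusted p = 0.0052). The count of 8 was 5 without replicate 1 at 24 h or replicate 1 at 4 h 4 with all probe sets of each gene averaged and 9 without the 5 arrays.

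Genes of mitosis also fell. All 24 measured genes of mitotic entry and exit read lower at 24 h, 7 were called, and the median was -0.59. Of 36 kinetochore and spindle genes 35 read lower, 15 were called, and the median was -0.60. In untreated cells both lists stood between the times, with medians at 24 h of -0.11 and -0.18 relative to them and 0 genes called. Ccnf, which encodes cyclin F, read 1370, 1469 and 1166 at 4 h and 616, 503 and 576 at 24 h, below all 3 untreated arrays (739, 646 and 887). It fell 2.36-fold (-1.24 ± 0.15, adjusted p = 0.00043). Top2a, the topoisomerase that untangles sister chromatids, read 10963, 9005 and 8674 and then 5718, 4643 and 4810, a fall of 1.89-fold (-0.92 ± 0.13, adjusted p = 0.0015). Kifc1, a motor of the minus end of microtubules, fell from 598 to 284 (-1.07 ± 0.16, adjusted p = 0.0015), Ttk, the spindle checkpoint kinase Mps1, from 1391 to 762 (-0.87 ± 0.12, adjusted p = 0.0011), and Spag5, the spindle protein astrin, from 1112 to 667 (-0.74 ± 0.12, adjusted p = 0.005). The groups of these 3 genes did not overlap. With arrays left out, the 7 calls of the first list became 2 without replicate 1 at 24 h, 4 without replicate 2, 3 without replicate 0 or 1 at 4 h and 7 without the others, and 12 without the 5 arrays. The 15 of the second list became 5 without replicate 1 at 24 h, 7 without replicate 2, 6 and 8 without replicate 0 and 1 at 4 h, 8 with averaged probe sets and 16 without the 5 arrays.

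All 20 measured homologous recombination genes read lower at 24 h, 9 were called, and the median was -0.65. Homologous recombination repairs breaks from the sister copy. Brca1, which directs the ends of breaks to this pathway, read 1478, 1368 and 1340 at 4 h and 834, 754 and 754 at 24 h. The times did not overlap, and the level fell 1.79-fold (-0.84 ± 0.11, adjusted p = 0.00054) to 780, beside 748 untreated. Exo1, a nuclease that resects break ends, fell from 1085 to 507 (-1.10 ± 0.15, adjusted p = 0.0014), Blm, the Bloom helicase, from 530 to 276 (-0.94 ± 0.16, adjusted p = 0.0058) and Brca2, a tumour suppressor of this pathway, from 951 to 468 (-1.02 ± 0.23, adjusted p = 0.023). Brca2 was lost without replicate 1 or 2 at 24 h or replicate 0 or 1 at 4 h (up to 0.12). Of 24 genes of break sensing, checkpoints and end joining, 3 were lower. The one with the smallest p, Clspn, encodes claspin, which links ATR to the checkpoint kinase Chk1. It read 1455, 1173 and 1185 at 4 h and 558, 554 and 535 at 24 h, and fell 2.30-fold (-1.20 ± 0.15, adjusted p = 0.00043). The count of 9 was 4 without replicate 1 at 24 h or replicate 0 at 4 h, 5 without replicate 1 at 4 h, 6 without replicate 2 at 24 h and 13 without the 5 arrays. The 3 calls of break sensing were 1 without replicate 0 at 4 h and 1 with averaged probe sets. With averaged probe sets the count of 9 was 4, and among the genes that kept their call with any array left out, Mcm10, E2f8, Rrm2, Uhrf1, Spag5, Brca1, Exo1, Clspn and Fbl were then not called.

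The promoters of 4 of these and the later genes are shown because the genes that moved together carry known binding letters at different rates. Each is the 250 bases before the RefSeq gene start (build GRCm38.p6), 5' to 3' on the strand of the gene. Capitals mark an E2F motif in E2f7 (TTTCCCGC, TTTGGCGC, TTTCGCGC or TTTGCCGC), the cell cycle homology region TTTGAA and CCAAT in Ccnf and Top2a, and an interferon response element (GAAA, any 2 bases, GAAA) in Ifit1, all searched on both strands.
E2f7 (chr10:110745189-110745438, plus strand): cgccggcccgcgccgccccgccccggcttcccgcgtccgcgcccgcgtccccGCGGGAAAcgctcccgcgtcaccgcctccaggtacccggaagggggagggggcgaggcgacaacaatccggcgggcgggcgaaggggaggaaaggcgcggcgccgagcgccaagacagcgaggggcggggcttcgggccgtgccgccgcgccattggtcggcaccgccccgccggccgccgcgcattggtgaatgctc
Ccnf (chr17:24251410-24251659, minus strand): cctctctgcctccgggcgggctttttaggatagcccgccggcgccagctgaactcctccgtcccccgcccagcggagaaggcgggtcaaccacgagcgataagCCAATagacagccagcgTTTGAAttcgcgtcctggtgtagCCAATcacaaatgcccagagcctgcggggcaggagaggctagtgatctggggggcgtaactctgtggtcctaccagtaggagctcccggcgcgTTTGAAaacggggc
Top2a (chr11:99024190-99024439, minus strand): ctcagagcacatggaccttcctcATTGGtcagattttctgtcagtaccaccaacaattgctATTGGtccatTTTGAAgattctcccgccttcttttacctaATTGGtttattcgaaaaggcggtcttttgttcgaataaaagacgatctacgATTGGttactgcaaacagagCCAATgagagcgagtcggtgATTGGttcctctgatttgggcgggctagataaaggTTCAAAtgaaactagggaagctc
Ifit1 (chr19:34640639-34640888, plus strand): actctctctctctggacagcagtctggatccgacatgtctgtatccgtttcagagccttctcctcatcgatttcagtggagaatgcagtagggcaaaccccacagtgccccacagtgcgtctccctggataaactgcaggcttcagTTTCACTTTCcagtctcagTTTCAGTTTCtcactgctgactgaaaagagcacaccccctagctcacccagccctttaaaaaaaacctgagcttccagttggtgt

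E2f7 held 1 match, which starts 198 bases before the gene start, Ccnf held 4 of its pair of motifs, Top2a 8 and Ifit1 2. Over windows of 300 bases (250 before to 50 after a start), the E2F motif was in 3.21% of 18109 windows of measured genes and in 2.26% of all 32851 windows. It was in 8.66% of 277 windows of genes called lower and 1.79% of 223 windows of genes called higher. Among the lists it was in 35.5% of windows of the licensing and fork genes and 34.6% of the E2F list. It was in 12.5% of the homologous recombination genes and 2.7% of the kinetochore and spindle genes. TTTGAA was in 13.4% of windows of measured genes (17.9% of all windows), 22.4% of genes called lower and 13.0% of genes called higher. Among the lists it was in 52.6% of the mitotic entry and exit genes and 70.3% of the kinetochore and spindle genes, but in 6.25% of the homologous recombination genes. CCAAT was in 37.4% of measured and of all windows, and in 89.5% and 75.7% of the mitotic entry and exit and the kinetochore and spindle lists. It was similarly frequent in lists with 0 genes called between the times, at 88.2% for ER chaperones, 82.4% for cholesterol enzymes and 76.2% for clock genes. The interferon element was in 3.03% of measured windows (3.44% of all), 6.28% of the windows of genes called higher and 38.5% of the interferon list. These are matches of letters, and binding was not measured.

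Genes of ribosome production were among those that fell. Of 26 genes of the Myc and ribosome biogenesis list 25 read lower at 24 h, 7 were called, and the median went from 0.40 above untreated cells at 4 h to -0.07 at 24 h. Utp20, a factor of small subunit processing, read 2603, 2513 and 2103 at 4 h and 1095, 1120 and 1329 at 24 h, and fell 2.04-fold (-1.03 ± 0.18, adjusted p = 0.0071). Fbl, the methyltransferase fibrillarin, fell from 8255 to 5224 (-0.66 ± 0.12, adjusted p = 0.0082). Odc1, the first enzyme of polyamine synthesis, fell from 8315 to 4993 (-0.74 ± 0.15, adjusted p = 0.012), a call lost without replicate 2 at 24 h or replicate 0 or 1 at 4 h (up to 0.078). The count of 7 was 4, 3 and 3 without replicate 0, 1 and 2 at 24 h, 2 and 3 without replicate 0 and 1 at 4 h, 4 without the 5 arrays and 2 with averaged probe sets.

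Cholesterol enzymes lowered at 4 h read higher at 24 h, without a call. Of 17 cholesterol synthesis enzymes 11 were lower at 4 h, where the median was -0.89. At 24 h the median was still -0.41 with 0 called, 16 of 17 read higher than at 4 h, and 0 passed in that comparison (3 without replicate 2 at 4 h). Sqle, squalene epoxidase, read 3454, 3460 and 4262 at 4 h and 4501, 4405 and 5216 at 24 h, and the untreated arrays lay at 5968 or more. Its groups did not overlap, and the difference was 0.34 ± 0.12 (adjusted p = 0.14). Dhcr7, the last enzyme of the pathway, read 642 untreated, 307 at 4 h and 339 at 24 h (0.14 ± 0.18 between the times, adjusted p = 0.80, and -0.92 against untreated cells at 24 h, adjusted p = 0.062). Of 18 genes of fatty acid synthesis and desaturation 2 were higher at 24 h than at 4 h. Scd1, the stearoyl-CoA desaturase, read 2165, 2445 and 2311 at 4 h and 3338, 3596 and 3530 at 24 h, a rise of 1.51-fold (0.60 ± 0.14, adjusted p = 0.029). Lpcat3, which places polyunsaturated chains into phospholipids and is a target of LXR, rose from 1801 to 2809 (0.64 ± 0.15, adjusted p = 0.029). Scd1 was lost without any array but replicate 2 at 4 h (up to 0.12), and Lpcat3 without replicate 1 or 2 at 24 h, replicate 0 or 1 at 4 h (up to 0.13) or the 5 arrays. With equal array medians or averaged probe sets neither was called, and the fatty acid list had 0 calls without any array but replicate 2 at 4 h, where it had 3.

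Elovl6, the elongase that takes palmitate to stearate, stayed low. It read 2464, 2377 and 2812 untreated, 1438, 1481 and 1575 at 4 h and 1340, 1245 and 1660 at 24 h. Both irradiated groups lay below all untreated arrays (-0.77 ± 0.13 at 4 h, adjusted p = 0.0042, and -0.86 at 24 h, adjusted p = 0.011), and they overlapped each other. The 24 h call was lost without replicate 1 at 24 h (0.092), and both calls were lost with equal array medians or averaged probe sets.

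A few lysosome genes rose. Of 22 measured 21 read higher at 24 h than at 4 h and 3 were called, with a median of 0.50 that brought the list from -0.62 at 4 h to -0.04 at 24 h relative to untreated cells. Neu1, a sialidase, rose from 391 to 693 (0.83 ± 0.18, adjusted p = 0.02), Glb1, beta-galactosidase, from 544 to 877 (0.69 ± 0.17, adjusted p = 0.032) and Tpp1, a peptidase, from 2655 to 4636 (0.80 ± 0.20, adjusted p = 0.039). In all 3 the 24 h arrays lay above the 4 h arrays. The count of 3 became 0 without replicate 1 or 2 at 24 h or replicate 0 or 1 at 4 h and with averaged probe sets, and 4 without the 5 arrays, where Neu1 was not called.

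Secreted and matrix genes that had fallen by 4 h were among those that rose. Tgfbi, an adhesion protein that TGF-beta induces, read 1025, 557 and 746 at 4 h and 1911, 1396 and 1664 at 24 h, and rose 2.18-fold (1.13 ± 0.20, adjusted p = 0.0071). Its untreated level was 1956, and 3 further probe sets rose by 0.91 to 1.42 (adjusted p over probe sets up to 0.035). Tgfb2, a TGF-beta ligand, read 490, 660 and 439 and then 1116, 1013 and 1164, a rise of 2.10-fold (1.07 ± 0.22, adjusted p = 0.014). Mmp3, the secreted protease stromelysin, read 3553, 1533 and 2551 at 4 h and 10302, 5266 and 5206 at 24 h, within 6709 to 10888 untreated or below it. It rose 2.73-fold (1.45 ± 0.31, adjusted p = 0.017). Thbs2, an antiangiogenic thrombospondin, rose from 1380 to 2959 (1.10 ± 0.22, adjusted p = 0.014), and Dcn, the collagen-binding proteoglycan decorin, from 6921 to 15072 (1.12 ± 0.27, adjusted p = 0.033). Collagen and other matrix genes as a list had 2 of 31 higher and 0 lower, with a median of 0.14, the TGF-beta and BMP list 2 of 25 (0.01) and the proteases and inhibitors 1 of 19 (0.61). The matrix and protease lists had 0 calls without replicate 0 at 24 h or replicate 1 at 4 h, and 4 each without the 5 arrays. Mmp3 and Thbs2 were lost without replicate 0 at 24 h or replicate 1 at 4 h (up to 0.088 and 0.075), Tgfb2 without replicate 2 at 24 h or replicate 0 at 4 h (up to 0.064), and Dcn without any but replicate 2 at 4 h (up to 0.12), with equal array medians or with averaged probe sets, which also ended the call of Tgfb2.

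Of 18 genes tied to senescence 3 were higher and 1 was lower (1 and 0 without replicate 1 at 24 h or replicate 0 at 4 h), and the list shares Glb1 and Mmp3 with those above. Cdkn2b, which encodes the inhibitor p15, read 1406, 1294 and 1913 at 4 h and 2609, 2759 and 2645 at 24 h, a rise of 1.76-fold (0.82 ± 0.16, adjusted p = 0.0099), with an untreated level of 2303 (0.21, adjusted p = 0.67). Ezh2, the histone methyltransferase that silences that locus, fell from 2970 to 1626 (-0.87 ± 0.18, adjusted p = 0.015). Neither gene's groups overlapped. Cdkn2b was lost without replicate 1 at 24 h, replicate 0 or 1 at 4 h (up to 0.059) or with equal array medians, and Ezh2 without replicate 1 at 24 h or replicate 0 at 4 h (up to 0.075).

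Interferon-stimulated genes moved both ways. Ifit1, which binds viral RNA, read 60, 28.1 and 38.6 at 4 h and 179, 162 and 175 at 24 h. At 4 h only replicate 0 lay above background, so the rise was at least 3.32-fold (2.10 ± 0.34, adjusted p = 0.0043), and the difference from untreated cells at 24 h was 1.75 (adjusted p = 0.057). Its promoter, above, holds a pair of interferon elements. Cgas, the sensor of DNA in the cytosol, went the other way. It read 191, 165 and 361 untreated, 282, 357 and 242 at 4 h and 102, 75.2 and 88.1 at 24 h. The 24 h arrays lay below all others, and the fall was 3.30-fold (-1.72 ± 0.24, adjusted p = 0.0011). Against untreated cells Cgas was lower by -1.36 at 24 h (adjusted p = 0.031), which made it the one late gene above background. That call was lost without replicate 1 or 2 at 24 h, without untreated replicate 2 (up to 0.17), without the 5 arrays or with averaged probe sets. A second probe set of Cgas read 136, 194 and 51.1 in the order of the groups. Tap1, a peptide transporter of antigen presentation, fell from 113 to below background on 2 of 3 arrays, at least 2.11-fold (-1.40 ± 0.36, adjusted p = 0.044), a call lost without replicate 0 or 1 at 24 h or replicate 1 or 2 at 4 h (up to 0.18). Over 27 measured genes of the list 2 were higher and 2 lower (4 and 1 without replicate 2 at 4 h, 1 and 1 without replicate 0 or 1 at 24 h), the second higher one (Oasl2) was below background at both times, 22 read higher, and 8 lay below background in all wild-type groups.

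Of the ATF4 pathway, which answers a lack of amino acids and other stress, 3 of 20 genes rose between the times, and 0 had been called at 4 h. Nupr1, a small stress-induced chromatin protein, read 1458, 1472 and 1410 at 4 h and 2565, 2746 and 2802 at 24 h, above the untreated arrays of 1778 to 2278. It rose 1.87-fold (0.90 ± 0.17, adjusted p = 0.0084), and the difference from untreated cells was 0.44 (adjusted p = 0.42). Ddit3, which encodes the transcription factor CHOP, rose from 1475 to 2994 (1.02 ± 0.21, adjusted p = 0.013), and Trib3, a pseudokinase that CHOP induces, from 489 to 1201 (1.30 ± 0.26, adjusted p = 0.012). In the list 17 of 20 read higher, with a median of 0.33. Ddit3 was lost without replicate 1 or 2 at 24 h, replicate 0 at 4 h (up to 0.073), the 5 arrays or with equal array medians, and Trib3 without replicate 1 at either time (up to 0.07). The count of 3 was 1 without replicate 1 at 24 h and 2 without replicate 2, without replicate 0 or 1 at 4 h or without the 5 arrays.

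Of the 6 persistent genes, Cass4 and D630004K10Rik lay below background in all 3 groups. Macir, a regulator of macrophage metabolism, read 162, 164 and 157 untreated, 342, 249 and 420 at 4 h and 319, 352 and 350 at 24 h. Zfp367, a zinc finger gene, read 410, 423 and 405, then 783, 691 and 820, then 792, 795 and 659. In both, the irradiated times overlapped and lay above all untreated arrays. The differences were 1.03 and 1.08 for Macir (adjusted p = 0.0036 and 0.014) and 0.89 and 0.86 for Zfp367 (0.0025 and 0.017). Ebf3, a transcription factor, read 375 untreated and stayed at 159 at 4 h and 174 at 24 h (-1.24 and -1.10, adjusted p = 0.0014 and 0.011). The 24 h calls of these 3 genes were lost without the 5 arrays, with averaged probe sets, and without replicate 2 at 24 h (Ebf3, 0.05), replicate 1 or 2 at 24 h (Macir, up to 0.092) and replicate 1 at 24 h or untreated replicate 0 (Zfp367, up to 0.11). Macir and Zfp367 were also lost at 24 h with equal array medians, and the 4 h call of Zfp367 was lost with averaged probe sets. A second probe set of Macir read 165, 271 and 217 in the order of the groups. Further probe sets of Ebf3 differed by -0.72 and -0.21 from untreated cells at 24 h, and neither was called.

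Akt1 read 4502, 4546 and 3541 at 4 h and 2981, 3011 and 3114 at 24 h in wild-type cells. The times did not overlap, but the fitted difference was -0.46 ± 0.87 (adjusted p = 0.88). Its standard error pools the values near or below background in the other lines. A second probe set read 2372 and 2296. Akt2, which encodes PKBbeta, read 838 at 4 h and 740 at 24 h (-0.18 ± 0.14, adjusted p = 0.62).

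In the other lines the same interval gave 1 call in the knockout (0.0055% of genes) and 286 in line R (1.57%, 225 higher or 1.24% and 61 lower or 0.335%). The 271 genes lower in wild-type cells had medians of -0.74 there, -0.24 in the knockout and -0.30 in line R. They read lower in 89.7% and 84.1% of cases in the other lines, against 45.2% and 44.6% of all genes, and 33 were called lower in line R. The 202 higher genes had medians of 0.99, 0.48 and 0.59, read higher in 91.1% and 92.6%, and 54 were called in line R. Both sets were picked by their calls in wild-type cells, and this choice itself enlarges the wild-type medians. Picked by line R instead, the 61 lower genes had medians of -0.66 in line R, -0.56 in wild-type cells and -0.38 in the knockout. The 225 genes higher in line R had 1.04, 0.5 and 0.61 in that order. Across 10772 genes above background the changes correlated with r = 0.48 between wild type and knockout and 0.44 between wild type and line R, a description across genes that are not independent and share the arrays' scaling.

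The test of the difference between lines called 0 genes, for wild type minus knockout (0% of genes, 1014 at an unadjusted p below 0.05, smallest adjusted p = 0.22) and for wild type minus line R (0%, 1384, 0.099). The genes with the smallest p include the mitotic genes Kifc1, Spag5 and Cenpf. Kifc1 read 503, 449 and 478 at 4 h and 454, 602 and 489 at 24 h in the knockout, and 381, 448 and 371 and then 500, 425 and 491 in line R, while it fell in wild-type cells. The difference was -1.17 against the knockout (adjusted p = 0.22) and -1.32 against line R (adjusted p = 0.099). Spag5 differed by -0.77 and -1.02 (0.39 and 0.099) and Cenpf, a kinetochore protein, by -0.93 and -1.23 (0.39 and 0.11). Cenpf fell from 1670 to 975 in wild-type cells (adjusted p = 0.015, lost without replicate 1 or 2 at 24 h or replicate 0 or 1 at 4 h, up to 0.093). Its call was also lost with averaged probe sets, and its further probe sets differed by -0.34 and 0.19. Xkr5, of the XK family of membrane proteins, was also among the smallest p, and since its level at 24 h is a bound, its differences between lines are not given. In wild-type cells Xkr5 fell from 155 to below background on 2 of 3 arrays, at least 2.96-fold (-1.91 ± 0.28, adjusted p = 0.0015).

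The kinetochore and spindle list had medians of -0.60 in wild-type cells, -0.08 in the knockout and -0.06 in line R, and the mitotic entry and exit list -0.59, -0.07 and -0.12. At 4 h against untreated cells the mitotic list stood at 0.54, 0.06 and -0.10. The replication list had medians of -0.58, -0.26 and -0.51, with 7 of 30 called lower in line R. For the cholesterol enzymes the medians were 0.41, -0.08 and -0.16. All 17 differences between wild type and each other line were above 0, against 8672 and 8570 of 18193 genes, and 0 were called. The enzymes were read on the same arrays and both differences share the wild-type arrays, so these signs are not independent. On the wild-type arrays at 4 h the mean of the list was -1.265, -0.93 and -0.579 relative to untreated cells. The lowest was replicate 0, which stood apart. At 4 h against untreated cells the cholesterol list stood at -0.89, -0.05 and -0.07, with 0 genes called in the other lines. In the lysosome list the medians were 0.50, 0.27 and 0.44. Among single genes, Exo1 fell in line R too (-0.89, adjusted p = 0.008) and was -0.67 in the knockout (adjusted p = 0.12), Tgfbi rose by 1.48 in line R (adjusted p = 0.0019) and was 0.92 in the knockout (0.097), and Nupr1 rose by 0.75 in line R (0.029) and was 0.80 in the knockout (0.071). Cdkn1a read 147 at 4 h and 261 at 24 h in line R and 234 and 380 in the knockout, against 2132 and 1857 in wild-type cells.

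**Figure D4:**
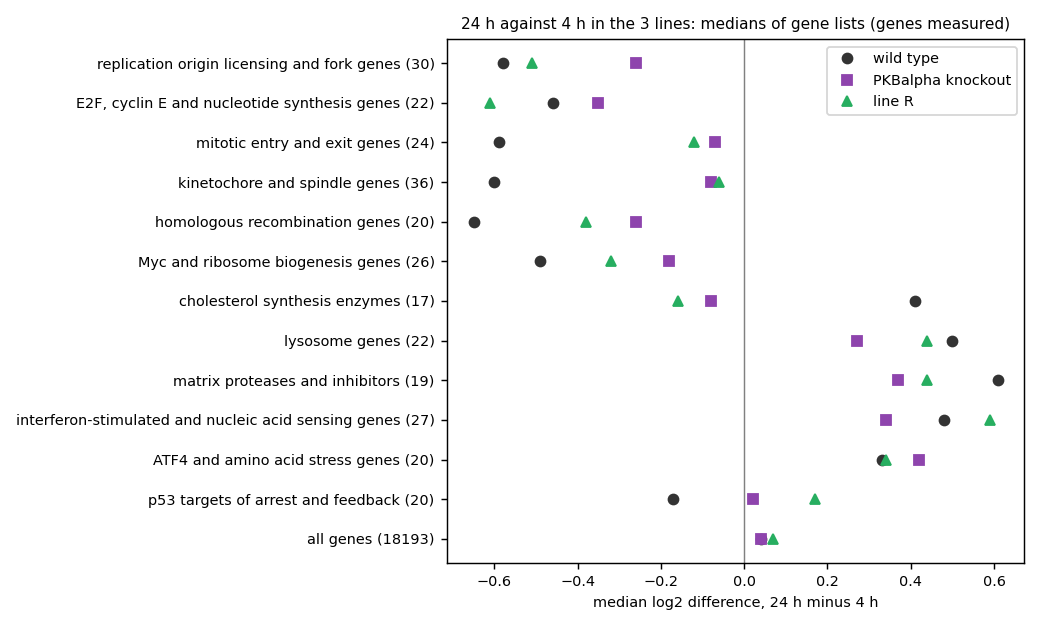
Median log2 difference of 24 h minus 4 h over gene lists in wild-type cells (circles), the PKBalpha knockout (squares) and line R (triangles). The mitotic lists lie at -0.59 and -0.60 in wild-type cells and between -0.12 and -0.06 in the other lines. The cholesterol list lies above 0 in wild-type cells only, and its medians at 4 h against untreated cells were -0.89, -0.05 and -0.07.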

How the data were processed

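The deposited table holds linear intensity values of 45101 probe sets on 27 Affymetrix arrays, 1 column per array, and every array has a trimmed mean of 500.003 (2% trimmed), a scaling by the authors. RMA and GCRMA appear in the submitters' processing notes with neither role nor version, so the summary method is not known. Intensities have no counting depth. Values were taken to log2 with no offset, 64 control probe sets were set aside, and the 34945 probe sets with 1 gene symbol in the platform annotation (932 had several, 9160 none) were reduced to the brightest per gene, 18193 genes. Background is the highest of 324 values of 12 probe sets of Y-linked genes, and folds against a group whose mean is below it are lower bounds, with each array of that group taken at background or at its own value, whichever was higher. limma 3.58.1 in R 4.3.3 fitted 9 group means over 27 arrays (18 residual and 1.39 prior degrees of freedom), two-sided, with Benjamini-Hochberg adjustment over all genes. Its test was checked on simulated data with independent noise and the same spread of a gene in all groups. That check could not show whether the spread may be pooled across lines. With 3 arrays against 3 no exact test on a single gene can pass, and none was made.

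The 6 arrays, the 38 gene lists (715 of 769 listed genes measured) and the promoter motifs were chosen with earlier results of these data known. Genes were named by rule: Cdkn1a, Mdm2, Ccng1, Akt1 and Akt2, the largest changes, the largest of each class, called list members and those with the smallest p of each list, and the smallest p between lines. The text uses a part of them. Replicate numbers did not pair the wild-type arrays compared here (same-numbered pairs correlated from -0.33 to 0.19, median -0.06, over 9 pairs). Over all 108 pairs of the 27 arrays the range was -0.79 to 0.83, and untreated wild-type and knockout arrays of 1 number correlated at 0.45, 0.55 and 0.74. Promoters are RefSeq windows of GRCm38.p6, matched by symbol for 14452 genes. The alternatives were a replicate block, the compared or the wild-type arrays only, an intensity trend, genes above the median level, quantile normalization, equal array medians, log2(value + 16), the mean over the probe sets of a gene (averaged probe sets), leaving out each array, and leaving out the 5 arrays that stood apart. Probe sets tested one by one and the motif counts were added after the data had been seen.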

Additional observations from a re-analysis of the deposited data

How the results depend on the processing

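The direct comparison called 473 genes, and 491 with the replicate block, which changed no call of a named gene, 671 with an intensity trend, 490 with quantile normalization, 592 with log2(value + 16) and 617 without the 5 arrays that stood apart. It called 876 with genes above the median level only (fewer genes tested), 194 with averaged probe sets, 1 with the compared arrays and 0 with the wild-type arrays (both with fewer samples), and 101 to 628 with 1 array left out. At 4 h against untreated cells 592 became 1152 (genes above the median level), 346 (equal array medians), 278 (averaged probe sets), 366 (without the 5 arrays), 0 (compared arrays), 3 (wild-type arrays) and 190 to 481 with 1 array left out. The 275 higher and 317 lower genes became 230 and 116 with equal array medians, and 236 and 130 without the 5 arrays. At 24 h against untreated cells 9 became 19 (trend), 18 (genes above the median level), 1 (averaged probe sets), 0 (compared and wild-type arrays) and 3 to 23 with 1 array left out. Without the 5 arrays it was 13, and 2 of the 9 were among them. The difference between wild type and knockout, 0 genes, became 1 without the 5 arrays and 0 to 4 with 1 array left out. That between wild type and line R became 3 (trend), 12 (genes above the median level), 8 (log2(value + 16)) and 0 to 8 with 1 array left out. Of 49 named genes called at 24 h against 4 h, 49 kept the call with the block, the trend, quantile normalization and log2(value + 16), 41 with equal array medians, 28 with averaged probe sets, 0 with the compared or the wild-type arrays and 28 to 47 with 1 array left out. Differences that changed sign with 1 array left out were those of Cdkn1a (range -0.46 to 0.15, above 0 without 24 h replicate 0 or 4 h replicate 1), Mdm2 (-0.81 to 0.23, above 0 without 24 h replicate 0 or 4 h replicate 2), Zfp367 (-0.10 to 0.06, above 0 without replicate 2 at either time), Dhcr7 (-0.06 to 0.29, below 0 without 24 h replicate 2 or 4 h replicate 1) and Macir (-0.16 to 0.22, below 0 without 4 h replicate 1). With averaged probe sets the signs changed for Mdm2 (0.15), Zfp367 (0.47), Macir (-0.14), Akt2 (0.07) and Tap1 (0.05), which for Tap1 takes in 3 probe sets below background. Macir also changed with quantile normalization (-0.01) and with equal array medians (-0.06). Of these only Tap1 had been called. The marker lists of epithelial, endothelial, haematopoietic and skeletal muscle cells and the Y-linked genes gave no value with genes above the median level only. The cause of these changes was not tested.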

Other observations

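Outside the lists, 4 genes with large rises between 4 h and 24 h had fallen by 4 h. Adh1, an alcohol dehydrogenase that acts on retinol, read 167, 238 and 418 untreated, 57.7, 45.7 and 30.6 at 4 h and 186, 207 and 219 at 24 h. At 4 h only replicate 0 lay above background, and it rose at least 3.97-fold (2.23 ± 0.39, adjusted p = 0.0071). Ccn3, a matricellular growth regulator, read 466, 507 and 817 at 4 h and 1749, 2857 and 3774 at 24 h, with 2457 untreated, and rose 4.61-fold (2.20 ± 0.43, adjusted p = 0.01). Enpp5, a membrane phosphodiesterase of the ENPP family, rose from 236 to 816 (1.79 ± 0.33, adjusted p = 0.0088). Fbln7, a fibulin of the matrix, read 56, 3.53 and 96.2 at 4 h and 179, 266 and 272 at 24 h, with replicate 1 at 4 h below background, a rise of at least 3.68-fold (adjusted p = 0.028). The groups of all 4 did not overlap between the times. Ccn3 was lost without replicate 1 or 2 at 24 h or replicate 0 at 4 h (up to 0.057), Enpp5 without replicate 1 at 24 h or replicate 0 at 4 h (up to 0.051) and Fbln7 without replicate 1 or 2 at 24 h (up to 0.096).

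Several lists stayed close to all genes between 4 h and 24 h. The 18 circadian clock genes had a median of 0.02 with 0 called, the 21 oxidative phosphorylation genes 0.03 with 0 called and the 19 ER chaperone and XBP1 genes 0.04 with 0 called. Of the 9 measured histone genes and the 19 Akt and PI3 kinase genes 0 were called either, with medians of 0.18 and -0.10. Without the 5 arrays that stood apart, 1 clock, 1 ER and 1 histone gene were called. The 32 immediate early genes had a median of 0.30 above untreated cells at 4 h, with 3 called higher, and of 0.22 at 24 h, with 0 called, and 1 of them was higher at 24 h than at 4 h (0 without replicate 1 or 2 at 24 h or replicate 0 or 2 at 4 h). Across all genes 2826 had an unadjusted p below 0.05 by limma.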
